A study of Mus musculus with 4 samples.

Results

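The comparison described here was between cultured mammary fibroblasts that lacked Ets2, taken either from glands whose epithelium carried the PyMT oncogene or from glands with no oncogene. Its 2 arrays were picked by their titles. They are 2 of the 4 arrays of the series, and 1 array stood for each condition. The normal Ets2-null array came from a mouse genotype written Fsp-cre;Ets2db/loxP and the PyMT Ets2-null array from PyMT;Fsp-cre;Ets2db/loxP, in both cases on the FVB/N strain at 9 weeks of age. Both arrays therefore shared the Fsp-cre transgene, in which the Fibroblast Specific Protein 1 promoter drives Cre, together with 1 conditional allele (loxP) and 1 conventional knockout allele (db) that removes the DNA-binding domain of Ets2. The other 2 arrays, Ets2db/loxP and PyMT;Ets2db/loxP, lacked the Cre transgene and kept Ets2 from the conditional allele, so all 4 arrays carried the db allele. Fibroblasts were separated by gravity from female mammary glands, grown in DMEM with 10% serum and used at the second passage, and how many mice contributed to an array is not given in the sources used here. Every difference below is the RMA level (log2) on the PyMT Ets2-null array minus that on the normal Ets2-null array, and with 1 array a side no test of the condition was possible. The pair sets fibroblasts without functional Ets2 from the 2 kinds of gland side by side. With 1 array each, the oncogene cannot be told apart from mouse, culture or array.

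PyMT is the middle T antigen of mouse polyoma virus, a membrane protein that recruits cellular kinases and drives rapid mammary tumor formation when it is expressed in the epithelium. The transgene is part of the PyMT genotype, and the sample titles place the oncogene in epithelial cells. Whether the cultured fibroblasts expressed it was not measured here. Fibroblasts around a tumor are known for remodelling collagen matrix, secreting chemokines and growth factors and taking on contractile features, and ETS2 is a transcription factor downstream of RAS and MAP kinase signalling that is active in such cells.

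The array measured 12394 genes through probe sets that name 1 gene. Of these, 8441 genes were kept because the higher of the 2 levels reached 4.63, the 40th percentile of the whole value table. Among the kept genes, 7244 reached that filter level on both arrays and 1197 did so on 1 array only, where the low side is near background and its exact value has no meaning. The PyMT Ets2-null array stood somewhat apart from the rest of the series. Its lower quartile was 3.66 against 3.43 to 3.47 on the other 3 arrays, its 18S ribosomal RNA control probe sets were 1.03 to 2.61 higher than on the normal Ets2-null array, and 7 probe sets for bacterial spike-ins added in fixed amounts were 0.45 to 0.99 higher, while the 2 probe sets of the cre spike-in were 0.04 to 0.15 higher. The level at the 3' end minus that at the 5' end, a measure of RNA integrity, was 0.79 and 0.86 for Gapdh and 2.38 and 2.02 for beta-actin on the normal and the PyMT array. The part of these array differences in the results below was not tested. Among 3244 genes with at least 2 kept probe sets, the differences of the 2 brightest probe sets deviated from each other with an SD of 0.69, which covers measurement within the arrays and not variation between mice or cultures.

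Ets2 itself did not separate the genotypes. Its level was 11.89 on the normal and 11.22 on the PyMT Ets2-null array, against 11.86 and 11.21 on the normal and PyMT Ets2-present arrays. Where its single probe set lies relative to the deleted part is not given in the sources used here, so this level checks neither the deletion nor the labels. The labelled cell type was checked against 16 fibroblast genes, and all 16 reached the filter level on both arrays, although 10 were lower on the PyMT array and 4 of them, Lum, Dpt, Dcn and Thy1, at least 2-fold lower. The genes for the type I collagen chains, Col1a1 (12.81 and 13.11 on the normal and PyMT array) and Col1a2 (13.06 and 13.31), and for the intermediate filament vimentin, Vim (13.21 and 13.41), differed by 0.29, 0.25 and 0.20. S100a4, the gene whose promoter drives the Cre, stood at 12.97 on the normal array and 12.73 on the PyMT array.

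PyMT in the epithelium was accompanied by differences of at least 2-fold in both directions. Of all kept genes, 830 were at least 2-fold higher (9.83%) and 945 at least 2-fold lower (11.2%) on the PyMT array. At 4-fold the balance was further toward lower levels, with 112 genes higher (1.33%) and 191 lower (2.26%). When only genes at the filter level on both arrays were counted, 400 were at least 2-fold higher and 577 lower, and 54 and 89 passed 4-fold. The 1197 genes at it on 1 array only passed through their high side and had to differ, and 430 of them were at least 2-fold higher and 368 lower. List counts are therefore also given for genes at the level on both arrays where it matters. After centring each array on its median the balance at 2-fold turned, with 984 genes higher and 809 lower, and without the filter it turned too, with 1215 higher and 1082 lower. The median difference over the kept genes was 0.057, and 52.6% of them were higher and 47.3% lower by any amount. These shares are the background against which the gene lists below are read.

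The genes furthest below the normal array, among those at the filter level on both, included secreted signals, a proteoglycan and a matrix protease beside intracellular proteins. Gdf10, a ligand of the TGF-beta superfamily, stood at 12.09 on the normal array and 5.33 on the PyMT array, a difference of -6.76 or 108-fold, and was the gene furthest apart. Lum encodes lumican, a small proteoglycan that organises collagen fibrils, and its level was 11.62 on the normal array and 5.82 on the PyMT array (55.8-fold lower). Sfrp2, a secreted modulator of Wnt signalling, stood at 10.53 on the normal array and 5.42 on the PyMT array (34.4-fold lower). The high level was that of the normal array in each case, and the PyMT level was close to the filter level.

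Cxcl12, the chemokine ligand of CXCR4 made by stromal cells, had levels of 10.30 and 5.80 on the normal and PyMT array, and its other probe set was lower by 3.04 as well. Slpi, a secreted inhibitor of leukocyte elastase, had 10.20 and 5.74 (22.1-fold lower), and Saa3, an acute-phase serum amyloid, had 9.70 and 5.68 (16.2-fold lower). These genes belong to the inflammatory output of fibroblasts. Rerg, a RAS-related growth inhibitor, was 30.1-fold lower, Crabp1, which binds retinoic acid in the cytoplasm, had 10.12 and 6.22, and Satb1, a chromatin organiser, was 13.8-fold lower on its brightest probe set and lower by 1.44 (log2) on its other kept one. Adamts15, a secreted metalloprotease that cleaves proteoglycans, and Cpxm2, a carboxypeptidase-like protein, were 12.6-fold lower and 13.5-fold lower. Mboat1 (an acyltransferase of membrane phospholipids, 23.1-fold lower), Tspan13 (a tetraspanin, 18.3-fold lower), Ecrg4 (a secreted augurin precursor, 11.8-fold lower) and the metallothionein Mt1 (11.9-fold lower) completed the 15 lowest.

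The 15 genes highest on the PyMT array had smaller differences than the 15 lowest and included several genes known from vessel walls and fat. Foxc2, a forkhead transcription factor of mesenchyme and vessels, stood at 6.71 on the normal array and 10.89 on the PyMT array, a difference of 4.18 (18.2-fold higher). Calcrl, the receptor through which adrenomedullin and CGRP signal, had 5.34 and 9.21 (14.6-fold higher), and Mcam, an adhesion molecule of pericytes and endothelium, had 5.16 and 8.90 (13.4-fold higher). The PyMT array was the high one for all 3, and Calcrl and Mcam were not far above the filter level on the normal array. Adamts5, an aggrecan- and versican-cleaving protease, stood at 7.35 on the normal array and 10.77 on the PyMT array, and its second probe set was higher by 2.81.

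Cavin2, a coat protein of caveolae, had levels of 8.63 and 11.94 (9.90-fold higher). Fabp4, the fatty acid binding protein of adipocytes, had 6.82 and 9.99 (9.03-fold higher) and was higher on all 3 of its kept probe sets, by 1.75 to 3.33. Ebf2, a transcription factor of brown fat precursors, was 6.36-fold higher, and Fbxo32, a muscle ubiquitin ligase known as atrogin, was 7.37-fold higher. Cadm1, an immunoglobulin-family adhesion molecule, was 6.61-fold higher and the chemokine Ccl6 7.16-fold higher. Rnf128 (a membrane ubiquitin ligase, 9.67-fold higher), Ttyh1 (a membrane protein of the tweety family, 10.2-fold higher), Tmeff2 (a transmembrane protein with follistatin domains, 10.1-fold higher), Crip2 (a LIM-domain protein, 7.94-fold higher) and Pla1a (a phosphatidylserine phospholipase, 6.24-fold higher) were the others. Of the 30 genes in both groups, 12 had at least 2 kept probe sets, and in all 12 every kept probe set lay on the same side. The other 18 rested on 1 kept probe set, among them Ttyh1 with 4 probe sets in all and Calcrl and Mt1 with 2 each.

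**Figure D1:**
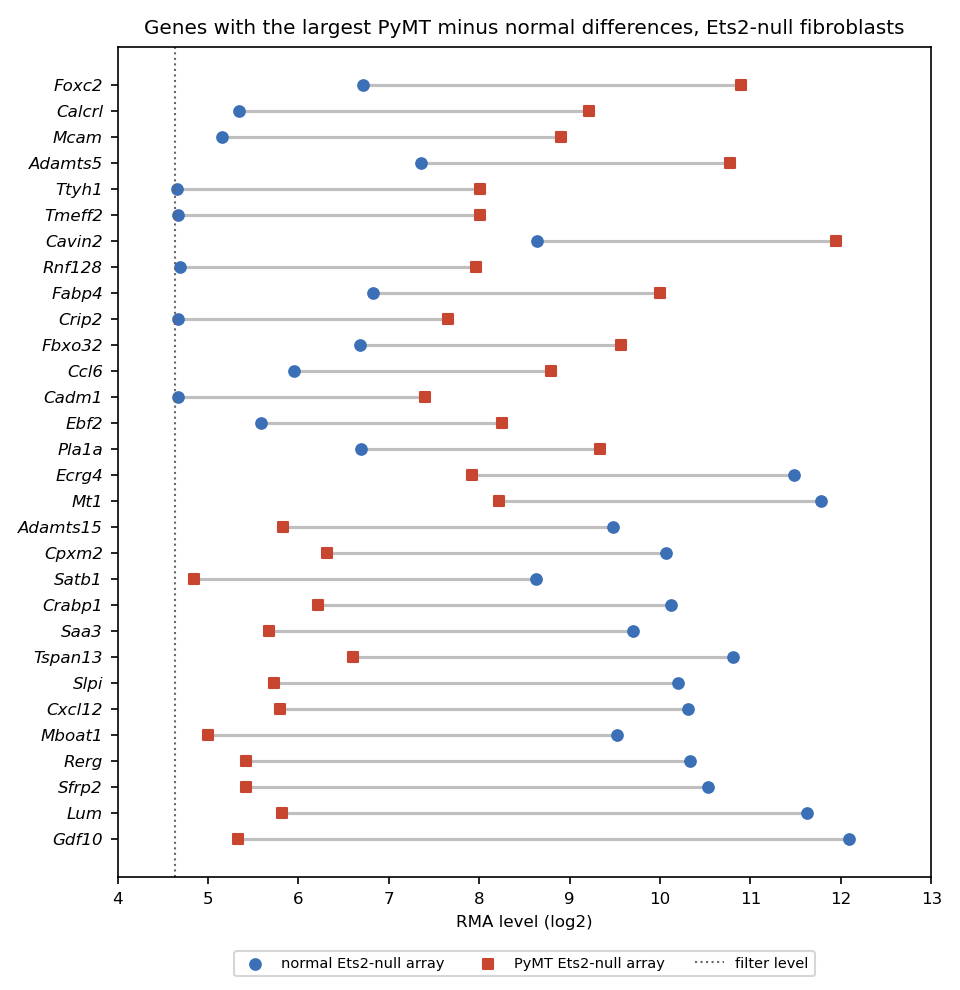
Levels (RMA, log2) of the 15 genes highest and the 15 lowest on the PyMT Ets2-null array relative to the normal one, among genes at the filter level (dotted line, 4.63) on both. Circles are the normal array and squares the PyMT array, 1 array each. The lower genes run from 12.09 to 5.33 for Gdf10, while Foxc2, the gene furthest apart in the other direction, runs from 6.71 to 10.89.

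Genes near background on 1 array are given as bounds, with the low side raised to the filter level. Bnc1, which encodes basonuclin, a zinc finger protein of epithelial and germ cells, had a level of 9.55 on the normal array and was at least 30.1-fold lower on the PyMT array. Fxyd6, a regulator of the sodium pump, was at least 29.2-fold lower, and the secreted matrix protein Egfl6 was at least 17.9-fold lower. Thbs4, a thrombospondin of tendon and muscle, was at least 11.6-fold lower, and Clu, the extracellular chaperone clusterin, was at least 12.3-fold lower on its brightest probe set, its 4 probe sets running from -4.58 to -2.02. Plppr4 (a membrane protein of the lipid phosphatase family), Scara3 (a scavenger receptor), Lipg (endothelial lipase) and Fgl2 (a fibrinogen-like protein) were lower by at least 16.5-, 15.5-, 12.1- and 10.3-fold. Ang2 here is a ribonuclease of the angiogenin family, not angiopoietin 2, and was at least 16.8-fold lower. Near-identical copies of that gene exist, so its identity on the array is uncertain.

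In the other direction Igfbp2, which binds and holds insulin-like growth factors, was at least 19.6-fold higher, from under the filter level to 8.92. Vnn1, a pantetheinase, was at least 10.3-fold higher and Naalad2, a peptidase, at least 8.45-fold higher. Krt19, a simple-epithelial keratin, was under the filter level on the normal array and at 7.21 on the PyMT array, and Lama2, the laminin chain of muscle and nerve basement membranes, reached 7.12 from just under that level. Mfsd6 (a transporter-like protein), Etfbkmt (a mitochondrial lysine methyltransferase), Trim30a (an interferon-induced TRIM protein), Meox2 (a mesenchymal homeobox factor) and Atp6v0a4 (a subunit of the proton pump) were higher by at least 7.74-, 7.36-, 6.18-, 4.74- and 4.61-fold.

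Cell division genes were lower almost without exception. Of 37 kept mitosis genes 36 were lower and 30 were at least 2-fold lower, with a median of -1.23, against 11.2% of all kept genes at least 2-fold lower. All 37 reached the filter level on both arrays. Kif22, a chromosome-arm kinesin, stood at 8.02 on the normal array and 6.12 on the PyMT array (3.73-fold lower), and Aurka, the centrosomal Aurora kinase, at 7.45 on the normal array and 5.64 on the PyMT array (3.50-fold lower). Cdc25c, the phosphatase that activates CDK1, had levels of 7.32 and 5.54, and Hmmr, a spindle protein, had 9.68 and 7.91. The exception was Nek2, a centrosomal kinase, with a difference of 0.15. Across the alternative processings the number of mitosis genes at least 2-fold lower ran from 23 to 30 and the median from -1.25 to -1.14.

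DNA replication genes were lower as well. Of 35 kept genes 34 were lower and 21 at least 2-fold lower, with a median of -1.23. Cdt1, which loads the replicative helicase, stood at 8.19 on the normal array and 5.87 on the PyMT array (4.98-fold lower), and Pold1, the catalytic subunit of DNA polymerase delta, at 8.85 on the normal array and 6.55 on the PyMT array (4.93-fold lower). Cdc6, which acts with Cdt1, had 6.69 and 4.66, and Pole, the catalytic subunit of polymerase epsilon, had 6.85 and 4.86. The exception was E2f1, a transcription factor that activates these genes, at 0.03.

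The Ets2-present pair shares no array with the Ets2-null pair, so the same lists could be set side by side. In it the median of the mitosis genes was -1.28, with 36 of 36 lower, while that of the replication genes was -0.23, with 21 of 34 lower. Of the 34 replication genes kept in both pairs, 33 had a lower difference in the Ets2-null pair, against 16 of 36 mitosis genes and 48.0% of all genes kept in both pairs. Cdc6 differed by -2.03 without Ets2 and by 0.57 with it, and Cdt1 by -2.32 and -0.23. The mitosis medians of the 2 pairs were thus close, while the replication median was further below 0 in the Ets2-null pair. With 1 array a condition this difference between genotypes was not tested.

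**Figure D2:**
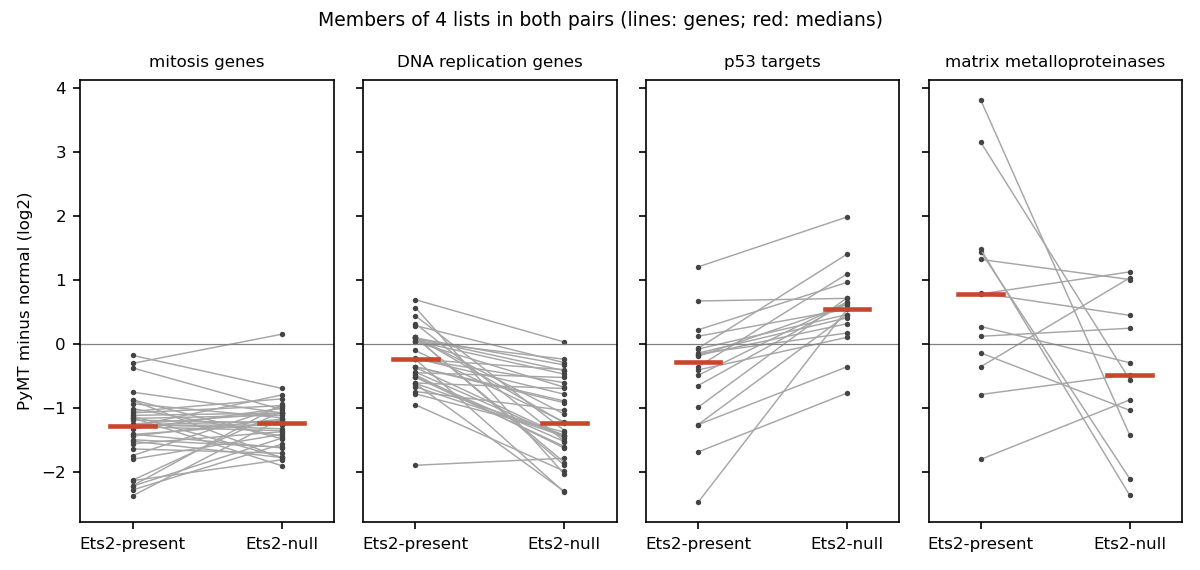
PyMT minus normal differences (log2) of the members of 4 gene lists, each line joining 1 gene's value in the Ets2-present pair (left) to its value in the Ets2-null pair (right). Red bars are the medians, over genes kept in both pairs on the left and over genes kept in the Ets2-null pair on the right. The mitosis medians are -1.28 and -1.23, the replication medians -0.23 and -1.23, the p53 target medians -0.27 and 0.55, and the metalloproteinase medians 0.79 and -0.47.

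Promoters of mitosis genes often hold CCAAT boxes and a TTTGAA element, both known from genes expressed late in the cell cycle. The windows of the 2 mitosis genes furthest apart are shown because nearly the whole list was lower. They cover 250 bases before to 50 after the annotated start (RefSeq, GRCm38.p6), with TTTGAA and CCAAT on either strand in capitals.
Kif22 promoter window, chr7:127042371-127042670, minus strand: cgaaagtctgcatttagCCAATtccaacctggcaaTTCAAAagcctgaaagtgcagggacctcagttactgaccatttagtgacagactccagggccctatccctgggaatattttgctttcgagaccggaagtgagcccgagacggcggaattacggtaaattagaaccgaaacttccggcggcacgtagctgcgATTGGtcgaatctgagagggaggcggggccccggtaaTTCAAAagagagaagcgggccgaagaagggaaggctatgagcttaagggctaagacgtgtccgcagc
Aurka promoter window, chr2:172370521-172370820, minus strand: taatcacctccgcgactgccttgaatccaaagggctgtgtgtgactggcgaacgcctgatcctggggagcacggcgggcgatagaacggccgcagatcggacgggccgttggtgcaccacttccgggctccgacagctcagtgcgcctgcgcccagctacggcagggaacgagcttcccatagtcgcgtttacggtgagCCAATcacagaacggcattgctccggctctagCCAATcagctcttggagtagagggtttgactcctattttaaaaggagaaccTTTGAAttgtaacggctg
TTTGAA was found in 28 of 35 windows of kept mitosis genes (80.0%, 25 of the 32 genes with a window) and in 17.9% of all 32851 windows, and CCAAT in 29 of 35 (82.9%) and in 37.4%. These matches describe letters only.

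Among the regulators of the step before replication, Ccnd1 lay on the other side. It encodes cyclin D1, the growth-factor-dependent partner of CDK4, and stood at 7.60 on the normal array and 10.10 on the PyMT array (5.63-fold higher), whereas on the normal and PyMT Ets2-present arrays its levels were 7.94 and 7.68. Ccne2 and Ccne1, the E cyclins that start replication, differed by -1.51 and -1.23, and Rbl1, a relative of the retinoblastoma protein, by -1.48. The whole list of 16 kept G1 cyclins and CDK inhibitors was mixed, with 2 members at least 2-fold higher and 3 lower. The p53 target genes were mostly higher by small amounts, 17 of 19, with a median of 0.55 and 3 at least 2-fold higher. Pmaip1, a pro-apoptotic BH3 protein also called Noxa, had levels of 7.10 and 9.09, the death receptor Fas had 7.54 and 8.63, and Rprm (reprimo) was under the filter level on the normal array. Perp, a desmosomal p53 target (-0.76), and Btg2, an antiproliferative gene (-0.35), were lower. In the Ets2-present pair the median was -0.27, and all 18 targets kept in both pairs had the higher difference in the Ets2-null pair. That difference between genotypes was not tested either.

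All 19 kept genes of cholesterol synthesis were lower on the PyMT array, 14 of them at least 2-fold, with a median of -1.15. Each reached the filter level on both arrays. Mvd, which makes isopentenyl pyrophosphate, stood at 7.26 on the normal array and 5.18 on the PyMT array (4.21-fold lower), and the sterol reductase gene Tm7sf2 at 6.84 on the normal array and 4.78 on the PyMT array (4.17-fold lower). The mevalonate kinases Pmvk and Mvk had 8.25 and 6.25 and 6.86 and 4.93. In the Ets2-present pair the list was lower too, in 18 of 19 genes, with a median of -0.65, and 14 of 19 members had the lower difference in the Ets2-null pair. Across the alternative processings the median lay between -1.36 and -1.07. The letters TCACNCCAC, a form of the sterol response element, were found in 1 of 18 windows of these genes (5.56%) and in 1.24% of all windows. Genes of fatty acid synthesis were less uniform. Of 14 kept, 11 were lower and 3 at least 2-fold lower, including the elongase gene Elovl6 (-1.74), Fasn, which encodes fatty acid synthase (-1.51), and Srebf1, their sterol-regulated activator (-1.08). Elovl4, an elongase of very long chains, was under the filter level on the normal array and at least 2.47-fold higher on the PyMT array.

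**Figure D3:**
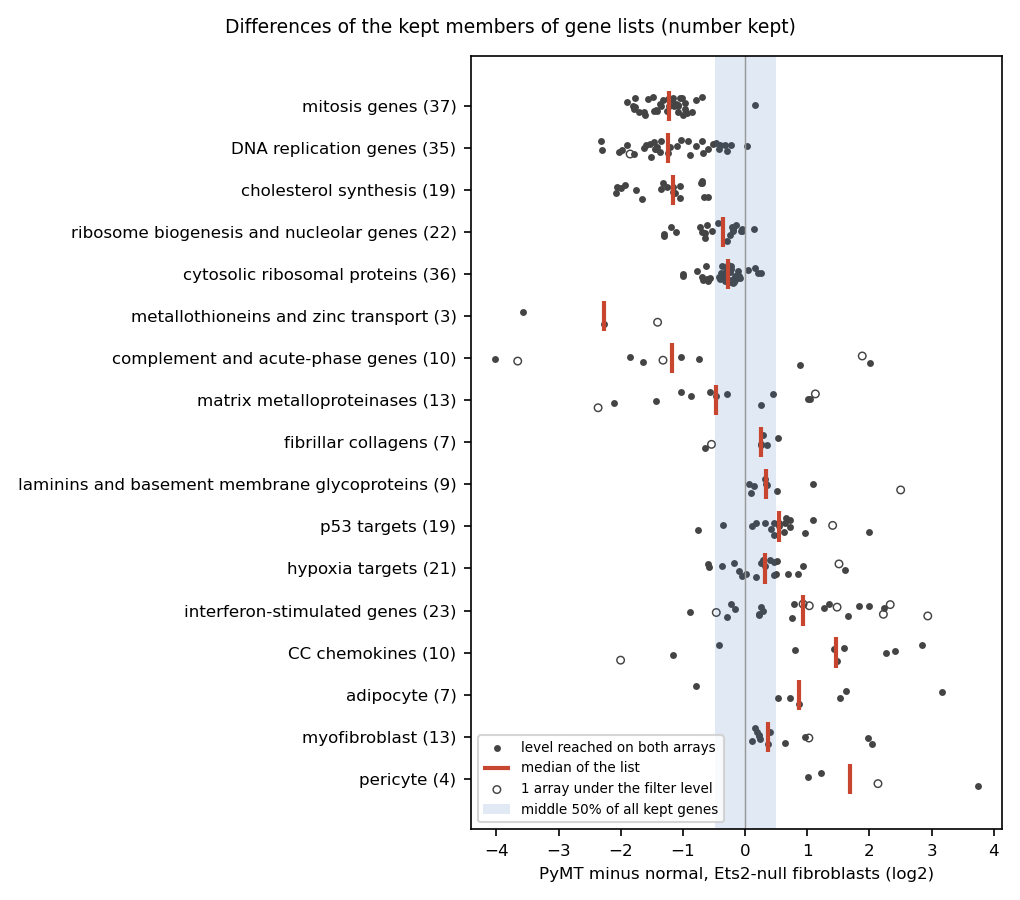
PyMT minus normal differences (log2) in Ets2-null fibroblasts for the kept members of 17 gene lists, with the number kept in parentheses. Filled points reached the filter level on both arrays and open points on 1, red bars are list medians, and the shaded band holds the middle 50% of all kept genes. The mitosis, replication and cholesterol lists lie almost wholly to the left of 0, with medians of -1.23, -1.23 and -1.15, and the CC chemokine and pericyte lists mostly to the right.

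The metallothioneins, small cysteine-rich proteins that bind zinc and copper, were lower on both genes at the filter level on both arrays. Mt1 stood at 11.78 on the normal array and 8.21 on the PyMT array (11.9-fold lower) and Mt2 at 10.89 on the normal array and 8.62 on the PyMT array (4.82-fold lower). On the normal and PyMT Ets2-present arrays Mt1 had 11.08 and 10.28 and Mt2 had 10.38 and 8.88, so both were lower there as well, with differences of -0.79 and -1.50. Mt1 rests on 1 probe set of the kind that can match several transcripts. Its other probe set was under the filter level on both Ets2-null arrays, and the mean over both gave -0.98. Slc30a1, a zinc exporter under the same metal-responsive control, was at 5.20 on the normal array and under the filter level on the PyMT array. The 2 neighbouring promoters are shown because they share the metal response element, TGCACNC, marked on either strand in capitals (RefSeq, GRCm38.p6).
Mt1 promoter window, chr8:94178839-94179138, plus strand: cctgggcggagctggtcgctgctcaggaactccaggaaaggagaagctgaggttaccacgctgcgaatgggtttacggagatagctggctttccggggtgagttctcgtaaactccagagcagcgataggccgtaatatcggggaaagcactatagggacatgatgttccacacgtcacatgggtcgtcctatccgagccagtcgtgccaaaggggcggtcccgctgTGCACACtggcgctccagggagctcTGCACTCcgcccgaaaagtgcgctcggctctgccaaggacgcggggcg
Mt2 promoter window, chr8:94172368-94172667, plus strand: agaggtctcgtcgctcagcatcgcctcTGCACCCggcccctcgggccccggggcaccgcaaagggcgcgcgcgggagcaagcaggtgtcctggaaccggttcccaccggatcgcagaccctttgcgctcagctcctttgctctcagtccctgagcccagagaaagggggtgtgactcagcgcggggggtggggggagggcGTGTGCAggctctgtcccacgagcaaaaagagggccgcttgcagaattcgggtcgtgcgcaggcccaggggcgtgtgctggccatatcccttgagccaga
The element was found in the windows of all 3 kept genes of this list and in 12.6% of all windows.

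Interferon-stimulated genes were mostly higher. Of 32 on the array 23 were kept, 18 of them higher and 11 at least 2-fold higher, with a median of 0.93 and none at least 2-fold lower, against 9.83% of all kept genes at least 2-fold higher. Because 7 of the 23 passed through their level on 1 array only, the 16 genes at the filter level on both arrays are also given, of which 12 were higher and 6 at least 2-fold higher, with a median of 0.52. Ifit1, an antiviral protein that binds foreign RNA, stood at 5.10 on the normal array and 7.34 on the PyMT array (4.71-fold higher), and Gbp2, an interferon-induced GTPase, at 6.61 on the normal array and 8.60 on the PyMT array (3.98-fold higher). Ifit3, a partner of Ifit1, was under the filter level on the normal array and at least 4.45-fold higher on the PyMT array, and Trim30a likewise. The 5 lower members were Ifi204 (-0.89), Ifitm3 (-0.28), Iigp1 (-0.23), Igtp (-0.16) and Irf7, the last under the filter level on 1 array. In the Ets2-present pair the median of the list was 0.17. Ifit1 differed by 0.42 there, Ifit3 was under the filter level on both arrays, and Trim30a was higher by 2.38 with the low side raised to the filter level. The interferon response element is shown in the windows of Trim30a and Ifit1, the members furthest apart that hold it, as GAAANNGAA on either strand in capitals, where adjoining matches overlap (RefSeq, GRCm38.p6).
Trim30a promoter window, chr7:104465144-104465443, minus strand: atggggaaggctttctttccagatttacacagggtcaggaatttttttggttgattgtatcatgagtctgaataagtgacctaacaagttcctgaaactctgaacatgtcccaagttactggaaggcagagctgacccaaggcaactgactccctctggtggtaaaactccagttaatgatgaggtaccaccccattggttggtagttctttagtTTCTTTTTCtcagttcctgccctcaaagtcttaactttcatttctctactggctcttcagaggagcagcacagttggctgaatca
Ifit1 promoter window, chr19:34640639-34640938, plus strand: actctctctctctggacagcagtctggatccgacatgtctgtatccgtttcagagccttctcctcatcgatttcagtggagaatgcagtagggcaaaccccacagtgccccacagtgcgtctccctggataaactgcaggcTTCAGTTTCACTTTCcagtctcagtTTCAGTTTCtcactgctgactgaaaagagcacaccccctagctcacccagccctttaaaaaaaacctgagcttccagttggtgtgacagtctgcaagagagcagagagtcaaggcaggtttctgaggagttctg
It was found in 14 of 24 windows of kept members (58.3%) and in 8.56% of all windows.

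The CC chemokines, which attract monocytes, eosinophils and lymphocytes, were largely higher. Of 18 on the array 10 were kept and 7 of these were higher, 6 at least 2-fold, with a median of 1.46. Ccl6 stood at 5.96 on the normal array and 8.79 on the PyMT array (7.16-fold higher), Ccl25 at 5.33 on the normal array and 7.74 on the PyMT array (5.31-fold higher) and Ccl9 at 8.31 on the normal array and 10.58 on the PyMT array (4.82-fold higher). Ccl2, the main monocyte attractant, stood at 9.24 and 10.82, a difference of 1.59. With Ets2 present 9 of the 10 were higher, 3 at least 2-fold, with a median of 0.56. There Ccl2 was 10.02 and 10.13 and Ccl9 9.11 and 8.84, differences of 0.11 and -0.27. The lower members were Ccl8 (-1.16), Ccl27a (-0.42) and Ccl5, which was under the filter level on the PyMT array and at least 2.19-fold lower. Leaving out the filter reduced the median to 0.64. Macrophages also make several of these chemokines. Of 23 macrophage genes on the array 15 were kept and 9 were higher, the log2 of their summed level was 11.75 on the normal and 12.63 on the PyMT array, and Itgam, Itgb2, Spi1 and Adgre1 were under the filter level on both. The lysozymes Lyz2 (7.11 and 9.09) and Lyz1 (8.22 and 9.77), which share sequence, were the macrophage genes furthest apart. The part of macrophages in the chemokine values was not tested.

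Other secreted inflammatory genes were mixed or lower. Among 7 CXC and CX3C chemokines kept of 14 on the array 1 was at least 2-fold higher, the neutrophil attractant Cxcl1 (1.04), and 1 lower, Cxcl12. Of 10 complement and acute-phase genes kept of 21 on the array 7 were lower, 6 of them at least 2-fold. Among the 7 at the filter level on both arrays 5 were lower, 4 of them at least 2-fold, against 11.2% of all kept genes. Without the filter the median of the list changed sign. Beside Saa3 and Clu the lower genes were led by C1s1, a protease subunit of the first complement component. It stood at 9.77 on the normal array and 7.92 on the PyMT array (3.62-fold lower). Serping1, the inhibitor of that protease, was higher at 9.82 on the normal array and 11.83 on the PyMT array (4.03-fold higher). Among 11 kept fibroblast cytokines Il33, an alarmin, stood at 9.77 on the normal array and 6.26 on the PyMT array (11.3-fold lower) and Tnfsf11, the osteoclast factor RANKL, at 9.95 on the normal array and 6.75 on the PyMT array (9.13-fold lower). The cytokines Clcf1 and Il18 differed by -1.03 and 0.99. Of 16 kept NF-kappaB targets 10 were lower, among them Tnfaip6, a hyaluronan-binding protein (-2.61), and the adhesion molecule Icam1 (-2.43). Bcl3, an I-kappa-B family member, was at least 4.81-fold lower, and Tnfaip2 was higher (1.30).

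The matrix genes divided by class. The 7 kept fibrillar collagen genes were within 2-fold on both sides, with a median of 0.25, and Col11a1, Col5a2 and Col3a1 differed by -0.65, 0.52 and 0.36. Among 15 other collagens 6 were at least 2-fold higher and 3 lower, and among the 12 at the filter level on both arrays 4 and 3. Col8a1, a short-chain collagen of vessel walls, stood at 7.37 on the normal array and 9.91 on the PyMT array (5.82-fold higher), and Col18a1, the source of endostatin, at 5.50 on the normal array and 7.25 on the PyMT array, a difference of 1.75. Col4a6, a basement membrane chain, was at least 3.55-fold higher, and Col6a2, a microfibril chain, was 3.20-fold lower. Laminin and basement membrane glycoprotein genes were higher in 9 of 9 cases with a median of 0.33, and 2 of them by at least 2-fold, Lama2 and Lamb2 (1.09). In the Ets2-present pair 6 of the 9 were lower and the median was -0.34. Collagen processing enzymes were higher in 12 of 16 cases, led by the crosslinking oxidase gene Loxl4 (5.23 and 7.17, 3.82-fold higher), followed by the lysyl hydroxylase Plod2 (0.93).

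Part of the small leucine-rich proteoglycans were lower. Beside Lum, Dcn (decorin) stood at 12.48 on the normal array and 10.07 on the PyMT array (5.32-fold lower) and Fmod (fibromodulin) at 11.86 on the normal array and 10.52 on the PyMT array (2.52-fold lower), while Omd (osteomodulin) differed by 0.61. The other 4 of the 8 kept members lay within 2-fold. Among 28 matricellular and elastic-fibre genes 10 were at least 2-fold lower and 2 higher, and among the 22 at the filter level on both arrays 4 and 2. Mfap4, a microfibril protein, had levels of 9.49 and 6.14 (10.2-fold lower), and Mgp, the matrix Gla protein that blocks calcification, had 12.21 and 9.06 (8.87-fold lower). Mgp was 11.53 and 11.99 on the Ets2-present arrays, a difference of 0.47. Spock3, a testican proteoglycan, was at least 8.54-fold lower. Dpt (dermatopontin, 10.86 and 7.81, 8.27-fold lower) and Thy1 (a surface marker of fibroblasts, 9.44 and 7.54, 3.73-fold lower) were also lower, so the fibroblast marker list held 4 members at least 2-fold lower and 1 higher, Pdgfrb (1.01), the PDGF-B receptor. In bulk RNA a smaller share of cells of a type and less RNA per cell cannot be told apart.

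Matrix metalloproteinases were lower in 8 of 13 cases in this pair and higher in 9 of 13 cases in the Ets2-present pair, with medians of -0.47 and 0.79. Mmp3, the stromelysin that activates other metalloproteinases, stood at 8.98 and 6.87 on the normal and PyMT Ets2-null arrays and at 8.10 and 9.54 on the Ets2-present arrays. Mmp13, a collagenase, stood at 6.16 and 4.73 without Ets2 and at 5.24 and 9.06 with it. Both genes were lowest on the PyMT Ets2-null array and highest on the PyMT Ets2-present array. Mmp9, a gelatinase, was 5.97 on the normal Ets2-null array and under the filter level on the PyMT one, at least 2.52-fold lower, with its other kept probe set lower by 0.64 (log2), whereas the Ets2-present arrays had 6.26 and 7.74. Mmp10, another stromelysin, differed by -0.56 and 3.15 in the 2 pairs, and Mmp11 by 1.04 and -0.35. TGANTCA, the AP-1 element known from metalloproteinase promoters, was found in 4 of 10 windows of kept members and in 7.81% of all windows. Of their inhibitors Timp1 stood at 11.90 and 11.33 in this pair and was higher by 1.05 in the Ets2-present pair. Spint2, an inhibitor of membrane serine proteases, was 2.33-fold higher. Among 12 kept ADAM and ADAMTS proteases 8 were higher, Adam23 by 1.45 and Adamts10 by 1.27 beside Adamts5, and Adamts15 was the only member at least 2-fold lower.

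Growth factor systems differed by single members rather than as blocks. In the TGF-beta superfamily the BMP antagonist Grem1 stood at 9.36 on the normal array and 6.11 on the PyMT array (9.53-fold lower) beside Gdf10, Ltbp1, which stores latent TGF-beta in the matrix, was 3.69-fold lower, and Fst (follistatin, an activin inhibitor) was 3.50-fold higher. Among response genes Tgfbi, an adhesion protein induced by TGF-beta, was 4.53-fold lower and the coreceptor Tgfbr3 3.90-fold lower, while Eng (endoglin), under the filter level on the normal array, was at least 3.67-fold higher and the receptor Acvrl1 2.69-fold higher. In the IGF system Igfbp2 and Igfbp3 stood at opposite ends. Igfbp3, the main carrier of IGFs in serum, had levels of 9.32 and 5.85 (11.1-fold lower), Igfbp4 was 3.29-fold lower and Igf1 itself 2.48-fold lower. In the Wnt list Dkk2, an inhibitor of Wnt receptors, was 3.55-fold lower beside Sfrp2, and Rspo2, which enhances Wnt signalling, was higher. Of the receptors and targets, Apcdd1, a Wnt inhibitor and target, was 5.45-fold lower, the receptors Fzd4 and Fzd6 differed by 2.01 and -1.93, and Axin2, a feedback target of beta-catenin, by -1.32.

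Angiogenic ligands were mixed, with 5 of 15 kept at least 2-fold higher and 4 lower, and 3 and 1 among the 9 at the filter level on both arrays. Angpt2 (angiopoietin 2, which destabilises vessels) stood at 4.99 on the normal array and 7.51 on the PyMT array (5.75-fold higher), and Hgf, the ligand of MET, at 5.86 on the normal array and 7.60 on the PyMT array (3.36-fold higher). On the Ets2-present arrays Hgf had 6.78 and 5.92, a difference of -0.86. Adm, the gene for adrenomedullin, a ligand that signals through Calcrl, had 7.75 and 9.35 in this pair (3.05-fold higher) and 8.68 and 7.50 in the Ets2-present pair. Adm is also induced by hypoxia. Of 21 kept hypoxia targets 15 were higher and 2 at least 2-fold higher, against 52.6% and 9.83% of all kept genes. Their median was 0.33, against -0.34 in the Ets2-present pair. Whether hypoxia had a part in these values was not tested. Vegfa differed by 0.93 and the collagen prolyl hydroxylases P4ha2 and P4ha1 by 0.85 and 0.69. Apln (apelin) was at least 3.29-fold lower. In the FGF, EGF and PDGF list Mdk (midkine, a heparin-binding growth factor) was 5.58-fold lower, Fgf10 2.75-fold lower and Fgf18 3.42-fold higher. Of 17 kept growth factor receptors 5 were at least 2-fold higher and 5 lower, against 9.83% and 11.2% of all kept genes. Among the 12 at the filter level on both arrays the counts were 2 and 3. Flt4 and Kdr, which bind VEGFs, were lower by at least 6.01- and 4.51-fold, and Ror2 and Fgfr2 differed by -1.45 and -1.39.

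Transcription factors of development were split, with 10 of the 38 kept (64 on the array) at least 2-fold higher and 13 lower, and 8 and 8 among the 31 at the filter level on both arrays. Beside Foxc2, Ebf2 and Bnc1 the homeobox factor Irx3 stood at 8.58 on the normal array and 5.98 on the PyMT array (6.07-fold lower). HOX genes, which record position along the body axis, were kept for 21 of 31 on the array and higher in 14 of these with a median of 0.45, and higher in 15 of 18 in the Ets2-present pair with a median of 0.89. Hoxb5 had 4.86 and 6.63, and Hoxb9 and Hoxa3 differed by 1.68 and 1.55, which made 3 members at least 2-fold higher. Hoxb4 differed by 0.99. The ETS family held no member 2-fold apart among 15 kept. Its largest differences were Etv5 (-0.93), which reports MAP kinase signalling, Fli1 (0.91), Elf4 (-0.70) and Ets2 itself (-0.68). The letters CCGGAAG, a core that ETS factors are known to bind, were found on either strand in 8.86% of all promoter windows. They were found in 16 of 37 windows of kept ribosomal protein genes (43.2%) and in 0 of 10 windows of kept metalloproteinases. Many other lists also had none, among them angiogenic ligands (15 windows) and the fibroblast markers (11 windows). With so few windows, a count of 0 does not set the metalloproteinases apart. The MAP kinase feedback genes Spry1, Dusp10 and Dusp1 differed by 1.38, -1.28 and 1.12, and 9 of 14 kept were lower.

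Genes of contractile and perivascular cells were higher. All 13 myofibroblast genes were kept and higher, with a median of 0.37 and 3 at least 2-fold higher, or 2 among the 12 at the filter level on both arrays. In the Ets2-present pair 11 of 12 myofibroblast genes were higher too, 2 at least 2-fold, with a median of 0.475. Actg2, the smooth muscle gamma-actin, stood at 9.13 on the normal array and 11.17 on the PyMT array (4.12-fold higher), Myh11, smooth muscle myosin, at 7.04 on the normal array and 9.01 on the PyMT array (3.92-fold higher), and Palld (palladin) and Cnn1 (calponin) differed by 0.96 and 0.65. Of 8 pericyte genes 4 were kept and were at least 2-fold higher, 3 of them at the filter level on both arrays and Rgs5 through the PyMT array only. The other 4 (Cspg4, Kcnj8, Abcc9 and Higd1b) were under the level on both arrays. The kept genes were Mcam, Rgs5, a regulator of G-protein signalling (at least 3.32-fold higher), Notch3, a receptor of mural cells (5.98 and 7.21), and Pdgfrb (9.94 and 10.95). The log2 of the summed pericyte level was 10.16 on the normal and 11.41 on the PyMT array. Pdgfrb, which is also on the fibroblast marker list, made up most of both sums. In the Ets2-present pair all 4 kept genes were higher too, with a median of 0.66.

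Adipocyte genes were higher in 6 of 7 kept cases. Pparg, the master regulator of fat cells, stood at 4.75 on the normal array and 6.37 on the PyMT array (3.07-fold higher), Cebpa, which acts with it, at 7.39 on the normal array and 8.93 on the PyMT array (2.89-fold higher), and Fabp5 at 11.19 and 12.06. The lower gene was Dgat2, the enzyme that completes triglycerides (-0.79). Of 16 adipocyte genes on the array 9 were under the filter level on both arrays, and the log2 of the summed level was 12.37 on the normal and 13.30 on the PyMT array. Pparg was 4.84 and 7.80 and Fabp4 7.64 and 9.96 on the Ets2-present arrays, so both were higher with PyMT in each genotype.

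Lymphoid and red cell genes left no signal above the filter level. No T, NK or B cell gene (15 on the array) and no erythroid gene (6) reached the filter level. Of 25 mammary epithelial genes 8 were kept, and Krt8, Cdh1 and the milk protein genes Csn2 and Wap were under the filter level on both arrays. Among the 8 kept epithelial genes 5 were higher and 3 lower, with a median of 0.25. Only 3 of them reached the filter level on both arrays, 2 higher and 1 lower, with a median of 0.059 and none at least 2-fold higher. The kept epithelial genes furthest apart were Cd24a, a surface protein not restricted to epithelium (12.09 and 9.31), Krt19, Krt18 (at least 4.25-fold lower) and Trp63 (at least 3.83-fold lower). The log2 of the summed level was 12.23 on the normal and 10.17 on the PyMT array, and Cd24a made up most of the normal sum. Of 16 endothelial genes 5 were kept and Pecam1, Cdh5 and Vwf were under the filter level. Among tendon and cartilage genes Scx, a tendon transcription factor, was at least 5.99-fold lower and Prg4 (lubricin) at least 4.33-fold lower beside Thbs4, and Tnmd (tenomodulin) was at least 2.96-fold higher. Whether cell mixture contributed to the differences was not tested.

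Genes of protein synthesis and respiration were mostly lower by small amounts. Of 36 cytosolic ribosomal protein genes 32 were lower, 2 of them at least 2-fold, with a median of -0.27, and of 22 ribosome biogenesis genes 21 were lower with a median of -0.36. Nop56, which guides methylation of ribosomal RNA, stood at 10.65 on the normal array and 9.34 on the PyMT array (2.48-fold lower), and Nhp2 and Mybbp1a, also nucleolar, differed by -1.30 and -1.20. Of 37 subunits of oxidative phosphorylation 25 were lower, with a median of -0.30. Cyc1 (cytochrome c1), Ndufv1 and Ndufb8 (complex I) differed by -1.23, -1.11 and -1.03. In the Ets2-present pair the 3 medians were -0.13, -0.26 and -0.03. Many ribosomal protein genes share sequence with pseudogenes, so single values there are uncertain. By contrast the unfolded protein response chaperones and heat shock genes held no member at least 2-fold apart among 19 and 13 kept.

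The genes that the study measured by RT-PCR gave mixed values in this pair. The study used RT-PCR to check its array contrasts of Ets2 genotypes, so the values here are not a check of that RT-PCR. Serpinb6b, an intracellular serine protease inhibitor, stood at 7.45 on the normal array and 9.84 on the PyMT array (5.24-fold higher), and another member of its cluster on chromosome 13, Serpinb9b, at 6.20 on the normal array and 8.73 on the PyMT array (5.78-fold higher). On the Ets2-present arrays they differed by 0.22 and -0.14. Close copies of both genes lie in the same cluster, so their identity on the array is uncertain. Serpinb1a (-0.08) and S100a3, a calcium-binding protein (0.50), were within 2-fold. Tslp, an epithelial-type cytokine, was under the filter level on both Ets2-null arrays (3.75 and 3.61) and reached 8.70 on the PyMT Ets2-present array. Mcpt8, a mast cell protease, was at least 2.75-fold lower. Lcp1, a leukocyte actin-bundling protein, was 2.58-fold lower on its brighter probe set, whereas its other kept probe set was higher by 1.49. Of 17 granzyme and mast cell protease genes on the array 4 were kept, 2 of them through the normal array only, and without the filter the median was -0.09 rather than -1.30. The 2 at the filter level on both arrays, Gzmd and Gzme, were lower in this pair and higher in the Ets2-present pair, where Gzme, a granzyme with close copies, differed by 1.95 against -0.70 here.

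Over all genes the Ets2-null pair and the Ets2-present pair pointed the same way more often than not. Across 7894 genes kept in both, the correlation of the 2 differences was 0.45 (Pearson) and 0.34 (Spearman). These are values across genes, which are not independent replicates, and the 4 arrays share a platform and a joint normalization. Among genes kept in both pairs 578 were at least 2-fold higher in the Ets2-null pair and 381 in the Ets2-present pair (4.83%). They shared 160 genes, which are 27.7% of the first list and 42.0% of the second. For lower genes the numbers were 871 and 467 (5.92%), with 245 shared, or 28.1% and 52.5%. Of the 578 higher genes 426 (73.7%) were also above 0 in the Ets2-present pair, where 49.4% of all genes were, and of the 871 lower genes 609 (69.9%) were below 0, against 50.5% of all genes.

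The 30 genes with the largest differences shared their direction with the Ets2-present pair in 29 cases, and 22 of the 30 were at least 2-fold apart there. Gdf10 stood at 9.86 and 5.39 on the normal and PyMT Ets2-present arrays (22.2-fold lower), Sfrp2 at 10.25 and 6.64 (12.2-fold lower) and Foxc2 at 7.96 and 10.82 (7.26-fold higher). The exception was Saa3, with 7.68 and 8.17 on the Ets2-present arrays. Calcrl and Mcam were less than 2-fold higher with Ets2 (0.92 and 0.95), and Igfbp2 was 6.29 and 6.03, a difference of -0.26. Opposite calls of at least 2-fold were about as frequent as over all genes kept in both pairs. Of the 578 higher genes 29 were at least 2-fold lower in the Ets2-present pair, where 5.92% of all genes were. Of the 871 lower genes 41 were at least 2-fold higher there, where 4.83% of all genes were.

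The genes furthest apart in opposite directions, at least 4-fold in the Ets2-null pair with both arrays at the filter level, were Gzmd, Mmp3, Rspo2 and Tent5c. Gzmd, a granzyme with close copies, stood at 6.64 and 4.64 without Ets2 and at 6.89 and 9.08 with it. Rspo2 stood at 6.26 and 8.62 without Ets2 and at 6.90 and 3.94 with it, the last under the filter level. Tent5c, a poly(A) polymerase, stood at 6.96 and 4.81 without Ets2 and at 5.34 and 6.63 with it. Rspo2 was highest on the PyMT Ets2-null array and the other 3 were lowest there among the 4 arrays.

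**Figure D4:**
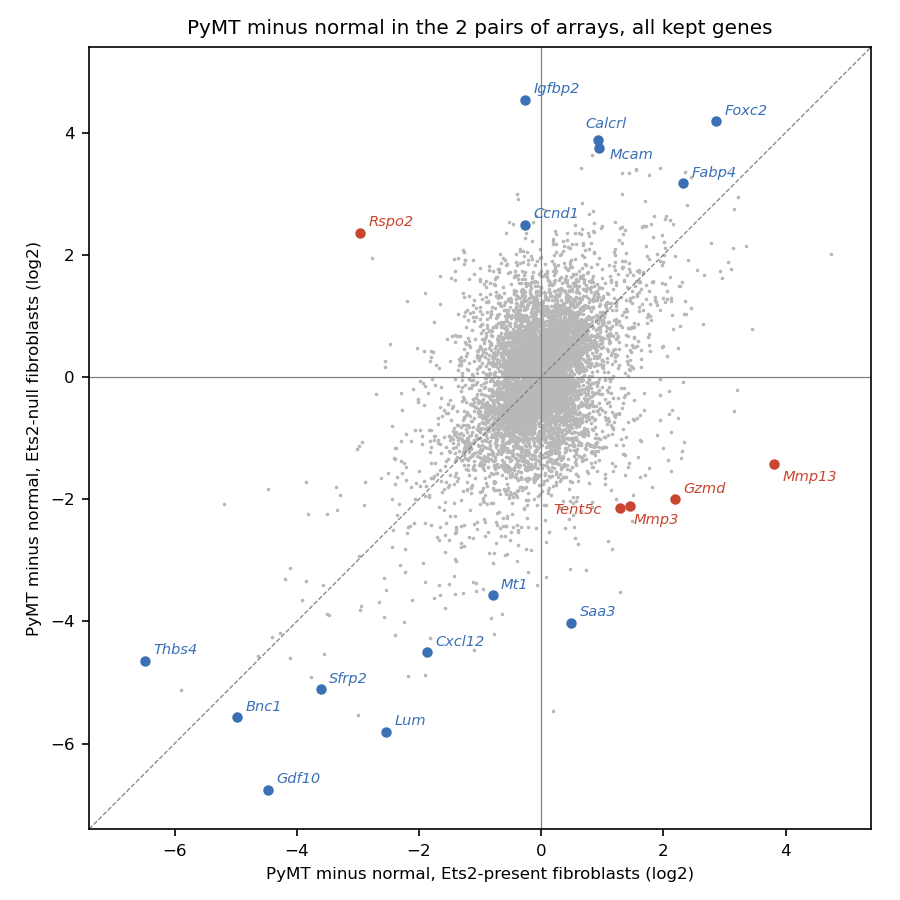
PyMT minus normal differences (log2) of the 8441 kept genes, in the Ets2-present pair on the horizontal and in the Ets2-null pair on the vertical axis, 1 point a gene, with the dashed line where both are equal. Blue names mark genes described in the text and red names 5 genes on opposite sides. Over the 7894 genes kept in both pairs the correlation was 0.45, and Gdf10, Lum and Sfrp2 lie far down in both pairs while Igfbp2 and Saa3 lie far from 0 in the Ets2-null pair alone.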

How the data were processed

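The authors hybridized RNA of each condition to 1 mouse Affymetrix array and deposited log2 values made by RMA (background correction, quantile normalization and probe summarization, named without a version in the submitters' processing notes). Of 22690 probe sets, 20393 named 1 gene in the platform annotation, 691 several and 1606 none, and 64 were controls. The probe set with the highest mean over the 4 arrays stood for its gene. Genes were kept where the higher level of the pair reached 4.63, the 40th percentile. Named genes were the 15 highest and 15 lowest with both arrays at that level, the 10 each way with 1 array under it, up to 4 per list by size of difference, the genes the study measured by RT-PCR and those at least 4-fold and 2-fold apart in opposite directions in the 2 pairs. Exceptions within a list were named after their values were seen. Folds of genes under the level on 1 array were computed with that side raised to it. The comparison and the gene lists were chosen with earlier results of these data known.

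Alternatives were a filter at the 60th percentile or none, low values raised to the level, cyclic loess (limma 3.58.1 in R 4.3.3), median centring, the mean over probe sets, probe sets without cross-hybridization suffixes first, genes at the level on both arrays and, chosen after seeing the data, a further quantile normalization. Counts and medians were tested on simulated data. Tables used Python 3.11.15 with numpy 2.4.6 and pandas 2.3.3. Motifs were searched on both strands of 300-base RefSeq windows (GRCm38.p6). With 1 array a group the number of arrays limits the precision, and no p-value was computed.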

Additional observations from a re-analysis of the deposited data

Results flagged for a closer look

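Several genes were at least 2-fold apart in the Ets2-null pair and at least 2-fold apart in the opposite direction in the Ets2-present pair. Of those at least 4-fold apart without Ets2 and at the filter level on both arrays, Gzmd differed by -2.00 and 2.19, Mmp3 by -2.10 and 1.45, Rspo2 by 2.36 and -2.96 (-2.27 with the low PyMT Ets2-present level raised to the filter level) and Tent5c by -2.14 and 1.28 in the Ets2-null and the Ets2-present pair. Of other genes looked up by name, Lcp1 differed by -1.36 and 2.08, Mcpt8 by -1.60 and 1.37, Mmp9 by -2.37 and 1.48 and Mmp13 by -1.43 and 3.81. The PyMT Ets2-null levels of Mcpt8 and Mmp9 were under the filter level, and raising them to it gave -1.46 and -1.34. With 1 array a condition these differences between the pairs were not tested. The 2 probe sets of Lcp1 lay on opposite sides of 0.

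A signal outside the gene measurements appeared in the control probe sets for 18S ribosomal RNA, which were up to 2.61 (log2) higher on the PyMT than on the normal Ets2-null array, and above all 3 other arrays. Its part in the gene differences was not tested.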

How the results depend on the processing

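Moves were set against the SD of 0.69 between probe sets of a gene, divided by the root of the list size for medians. Of 504 list medians recomputed under the alternatives 436 moved by less, 58 by more, and 10 of at least 0.25 in size changed sign. Of the 436, 64 came from quantile normalization of values that RMA had already quantile normalized. Of 614 recomputed values of named genes 594 moved by less, 19 by more and 1 changed sign. These totals leave out the alternative of genes at the level on both arrays. Under it the Schwann cell median changed sign too, from 0.805 to -0.16. With the filter at the 60th percentile 309 genes were at least 2-fold higher and 494 lower, 66 were at least 4-fold higher, 65 were 2-fold higher and 137 lower in both pairs, and 14 lay 2-fold apart in opposite directions. Without a filter 108 genes were in opposite directions and the correlation between the pairs was 0.32. With low values raised to the level 523 genes were 2-fold higher, 68 were 4-fold higher and 35 were in opposite directions. With both arrays at the level 400 were 2-fold higher and 577 lower, and 54 and 89 passed 4-fold. Fewer genes enter under the stricter filters by construction. Median centring took the median of all kept genes from 0.057 to 0.15, and 984 genes were then at least 2-fold higher and 809 lower. Without a filter the split was 1215 higher and 1082 lower.

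The 10 medians counted above as changing sign were, without a filter, CXC and CX3C chemokines (0.22), complement and acute-phase genes (0.079), immediate-early genes (0.10), mast cell and basophil genes (0.31) and endothelial genes (0.32). With the mean over probe sets they were CXC and CX3C chemokines (0.22), growth factor receptors (0.37) and endothelial genes (0.24), and the gene Lcp1 became 0.062. Of the named genes that moved by more than the SD, the mean over probe sets gave -2.06 for Satb1, -0.98 for Mt1, 2.23 for Calcrl, 2.19 for Fabp4, 2.05 for Ccl6, -3.77 for Cxcl12, -2.53 for Lipg, -3.02 for Fgl2, 2.55 for Mfsd6, 1.57 for Trim30a and -1.50 for Mmp9. Endothelial genes became 0.070 with probe sets lacking a cross-hybridization suffix preferred, where Clu was -2.02 and Naalad2 2.36, and Wnt ligands and modulators 0.054 under median centring. The cause was not tested. No paired analysis was possible because each condition had 1 array, and for the same reason no array could be left out.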

Other observations

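Gene lists not described above held differences of single members. Among 20 kept genes of steroid, aldehyde and retinoid metabolism 7 were at least 2-fold lower and 5 higher, and 6 and 4 among the 16 at the filter level on both arrays. Rarres2, the chemokine-like adipokine chemerin, had levels of 12.34 and 9.51 on the normal and PyMT Ets2-null arrays, Ptgis, prostacyclin synthase, had 10.86 and 8.14, and Adh1, an alcohol dehydrogenase, was at least 6.44-fold lower. Of 17 kept NRF2 targets 3 were at least 2-fold higher, the glutathione transferases Gsta4 (1.83) and Gstm1 (1.16) and the quinone reductase Nqo1 (1.17). In that list 9 members were higher and 8 lower, 1 of them at least 2-fold lower, with a median of 0.056. In the integrated stress response list 2 of 32 were at least 2-fold lower and 2 higher, the latter the transcription factor Ddit3 (1.18) and the stress protein Nupr1 (1.18), whereas they differed by -1.11 and -0.61 in the Ets2-present pair. Of 17 glycolytic enzymes 3 were at least 2-fold higher, the phosphofructokinases Pfkp (1.16) and Pfkl (1.14) and the aldolase Aldoc (at least 2.36-fold higher). The glycolytic list had 7 higher and 10 lower members, none at least 2-fold lower, with a median of -0.088.

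The immediate-early list was split, with 1 of 19 at least 2-fold higher, Klf4 (1.26), and 2 lower, the nuclear receptors Nr4a2 (-1.13) and Nr4a1 (-1.03). Among Notch and Hedgehog genes the ligand Jag1 differed by 1.60 and Gas1, a Hedgehog coreceptor, by -1.25. In that list 3 of 13 were at least 2-fold higher and 3 lower, and 2 and 1 among the 8 at the filter level on both arrays. Of 9 kept integrin subunits 6 were higher, with a median of 0.51, and these 6 were the ones at the filter level on both arrays. The 3 lower ones passed through the normal array only, among them Itga8 and Itga4, lower by at least 2.76- and 2.44-fold. Of 12 kept antigen processing genes 7 were higher and 1, the peptide transporter Tap1 (1.21), at least 2-fold. The plasminogen activator list held no member at least 2-fold apart among 8 kept. S100g, a calcium-binding protein, was at least 6.35-fold lower. Of 34 axon guidance and adhesion genes 8 were at least 2-fold higher and 8 lower, and 6 and 4 among the 25 at the filter level on both arrays. Skeletal muscle genes were kept for 5 of 17 on the array, 4 of them through the PyMT array only, and with low values raised their median was 0.22. Acta1, at the level on both arrays, differed by 0.82, and Myod1 and Ckm were under the filter level on both arrays. Among 8 Schwann cell genes on the array 7 were kept, 3 of them at the filter level on both arrays and lower (median -0.16), and Sox10 was under it.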
